A study of Mus musculus with 26 samples.

Results

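The messages of 10 mouse genes that carry the insulin signal from the cell surface into the cell were followed in brown preadipocytes made to differ in the insulin receptor (IR) introduced into them. The genes were chosen by name, as the insulin receptor Insr, its homologue Igf1r, the receptor substrates Irs1 and Irs2, the adaptors Shc1 and Grb10, the PI3K regulatory subunit Pik3r1, the kinases Akt1 and Akt2, and the transcription factor Foxo1. Each symbol matched 1 gene of the 52962 in the count table, and all 10 were among the 15402 genes expressed highly enough to be tested. Every library came from SV40-immortalised brown preadipocytes of newborn mice with floxed IR and IGF1R genes, in which both genes had been recombined by Cre delivered with an adenovirus. DKO cells carried an empty retroviral vector. The other lines carried FLAG-tagged human receptor of the B isoform from the same kind of vector. These were the intact receptor (IR), a kinase-dead receptor (K1030R, labelled KD), a receptor without its last 79 amino acids (∆CT, labelled CT), and a receptor that kept 36 juxtamembrane amino acids of its intracellular part and no kinase domain (JMO). Cells were kept without serum for 6 h and then harvested, or given 100 nM insulin for 15 min before harvest. There were 26 libraries in 9 groups, with 3 libraries per group, 2 for ∆CT with insulin, and DKO cells without insulin only. Each receptor was carried by a single cell line, and the labels do not say whether the libraries of a group came from separate cultures. The p-values therefore measure the spread between these libraries, which may be technical, and not the spread between independently made lines.

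Insulin and the IGFs bind receptors with an intracellular tyrosine kinase. The active kinase phosphorylates IRS proteins and Shc, which dock further proteins. IRS proteins recruit PI3K through its regulatory subunit p85, the product of Pik3r1, and PI3K activity leads to activation of Akt, which phosphorylates FoxO1 and holds it out of the nucleus. Shc proteins lead to Ras and the MAP kinases, whereas Grb10 binds the activated receptor and dampens its signal. In brown preadipocytes the pathway is known for its part in differentiation and in glucose and lipid uptake. The question addressed here is which of its components differ in mRNA level with the receptor, its kinase activity or its intracellular domain, and which respond within minutes of insulin.

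Library totals ran from 17228982 to 24694828 counts, and the spread between libraries of a group, as the biological coefficient of variation, came to 4.44%. The lowest count of any of the 10 genes in any library was 435, for Igf1r. Of 9 preadipocyte markers, 5 passed the filter on low counts. Pdgfra had a mean of 163 CPM (counts scaled to library size) in DKO, 278 in IR, 168 in K1030R, 233 with ∆CT and 221 CPM in JMO cells. Ly6a had 44.8 CPM in DKO, 4.50 in IR, 3.51 in K1030R, 2.90 with ∆CT and 10.7 in JMO cells. Cd34 stood at 3.45 CPM in DKO and 4.92 in JMO but at 10.7 to 14.2 CPM in the other lines. Cebpb stood at 16.1 CPM in DKO and 14.2 CPM in JMO but at 10.1 to 10.7 CPM in the other lines, and Pparg had 2.75 CPM in IR cells and 4.43 to 5.42 CPM elsewhere. Ebf2, Prdm16 and Zfp423, which mark the brown adipocyte lineage and committed preadipocytes, had at most 0.402, 0.155 and 0.284 CPM in any library, and Ucp1 of mature brown fat at most 0.0463 CPM. Fabp4 was the one gene of 5 on the mature brown adipocyte list to pass the filter, with 2.48 CPM in DKO, 4.41 in JMO and 0.729 to 1.36 CPM in the other lines. The epithelial list had no gene above the filter, and the endothelial list had 1 of 3 (Pecam1, at 8.98 to 11.7 CPM over the line means). The muscle list had 1 of 4 (Des, at 3.51 CPM in DKO, 4.08 in JMO and 2.23 to 2.79 CPM in the other lines), and its sum was 3.46 to 4.40 CPM over the DKO and 3.74 to 5.30 over the JMO libraries against 2.01 to 3.31 CPM over those of the other lines without insulin. The sum of 4 macrophage markers was 3.58 to 4.64 CPM over the DKO libraries and 2.47 to 3.22 CPM over all receptor libraries without insulin, with no overlap. Whether a message is lower in every cell or present in fewer cells cannot be told apart in bulk RNA, and the part of these marker differences in the results was not tested.

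**Figure D1:**
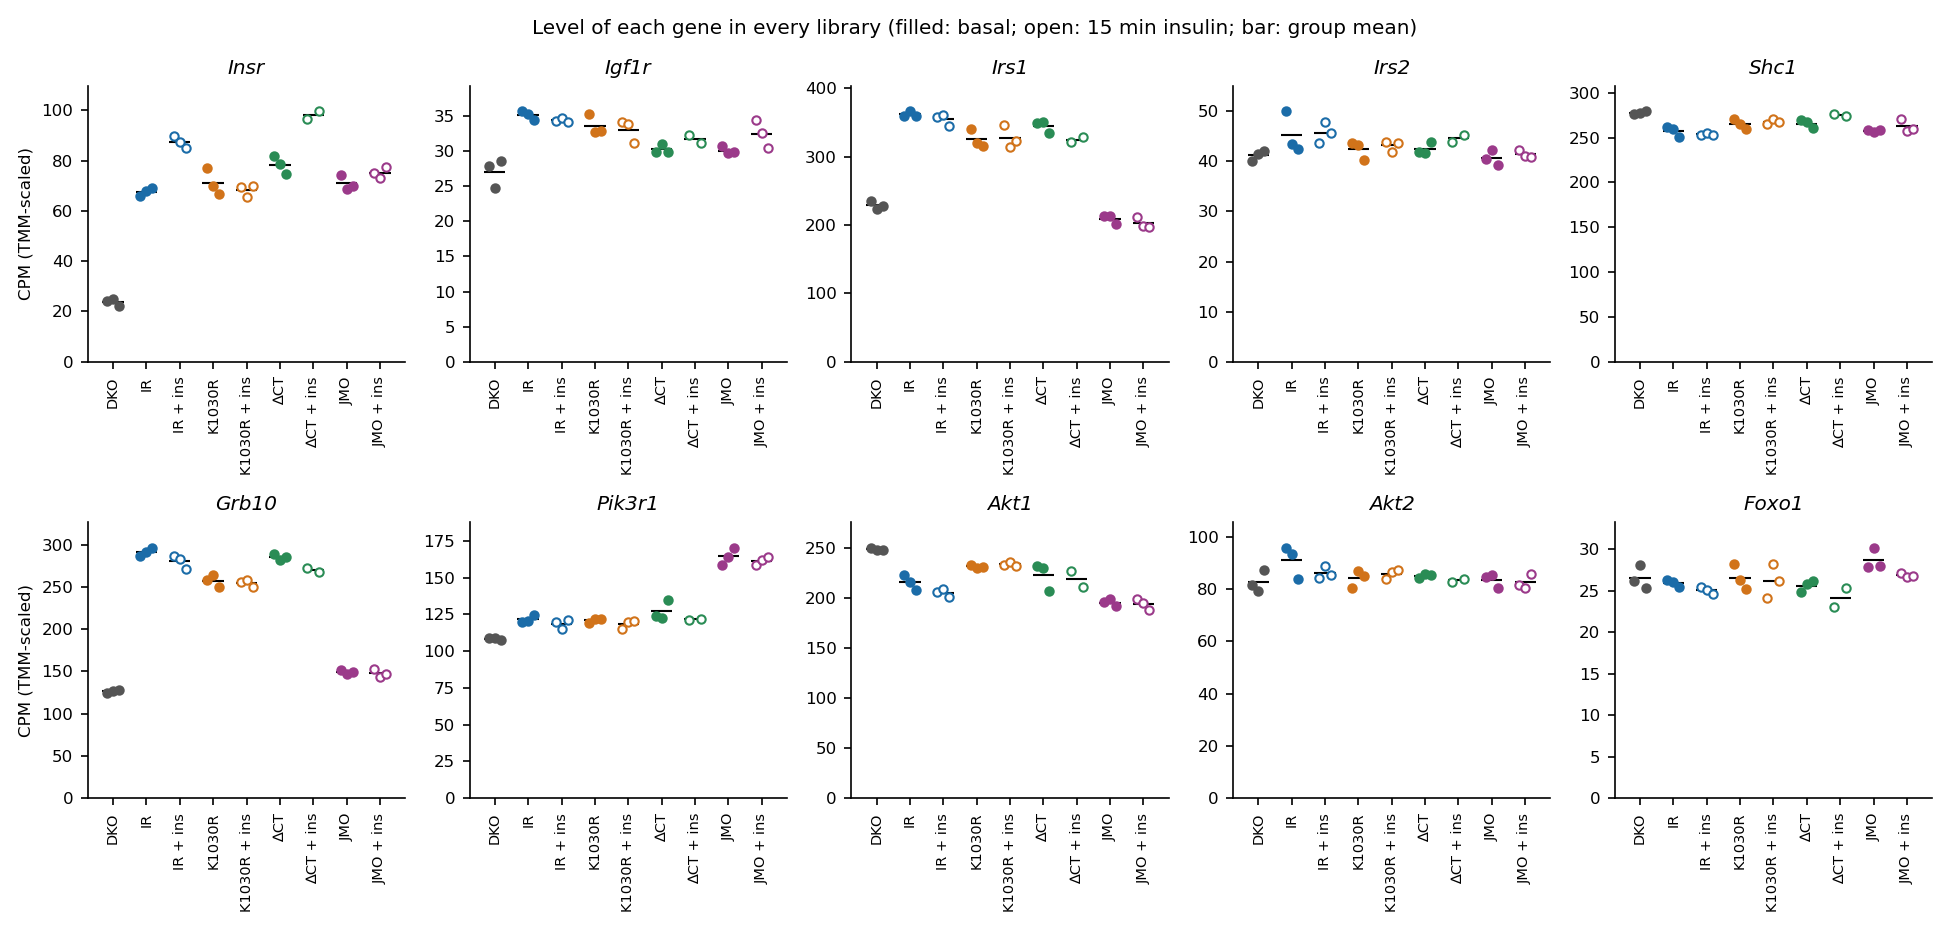
TMM-scaled CPM (y axis, from 0) of each of the 10 genes in all 26 libraries, by cell line and treatment (x axis). Filled points are libraries without insulin, open points libraries with 15 min of insulin, and bars are group means. Insr is lowest in DKO cells, Irs1 and Grb10 are low in DKO and JMO cells, and Pik3r1 is highest in JMO cells.

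Levels of different genes can be set side by side only per length of transcript. Per kb of merged exon length, Akt1 was the most abundant of the 10 messages in DKO cells without insulin (60.7 CPM per kb), followed by Shc1 (49.2), Irs1 (25.1), Grb10 (13.9), Akt2 (11.6), Pik3r1 (10.8), Irs2 (6.52) and Foxo1 (3.06). Insr and Igf1r were the lowest, at 1.73 and 1.61 CPM per kb. In IR cells Irs1 and Grb10 stood at 39.6 and 32.04 CPM per kb, nearer to Akt1 (52.6) and Shc1 (45.6). When the longest annotated transcript was used as the length, Grb10 (57.5 CPM per kb in IR cells) stood above Irs1 (39.6). That length is shorter than the merged exons for Akt1 (2.69 against 4.098 kb) and Shc1 (3.25 against 5.645 kb) but equal for Irs1 (9.144 kb). Irs1 therefore lay further below Akt1 and Shc1 by that length. Across the 9 groups, the ratio of the highest to the lowest group mean was 4.12 for Insr, 2.30 for Grb10, 1.79 for Irs1 and 1.51 for Pik3r1. It was between 1.09 (Shc1) and 1.3 (Igf1r) for the other 6 genes.

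Without insulin, 9 of the 10 genes differed between IR and DKO cells, 7 higher and 2 lower, where 49.8% of all tested genes (25.6% higher, 24.1% lower) were called by edgeR's quasi-likelihood test at an adjusted p below 0.05. In K1030R cells 6 of the 10 were called (5 higher, 1 lower) against 41.6% of all tested genes (21.2% higher, 20.4% lower), and in ∆CT cells 6 (5 higher, 1 lower) against 46.3% (23.4% higher, 22.9% lower). In JMO cells 7 were called (4 higher, 3 lower) against 34.3% (16.9% higher, 17.4% lower). With a test against a minimum change of 1.5-fold, 2 of the 10 genes passed for IR cells (6.89% of all tested genes), 2 for K1030R cells (5.29%), 2 for ∆CT cells (6.29%) and 1 for JMO cells (2.11%). Those genes were Insr in all 4 lines and Grb10 in IR, K1030R and ∆CT cells, so that Insr alone passed in JMO cells. Insr counts cannot be told apart from reads of the introduced human receptor, which only DKO cells lacked. Insr is also among the genes called higher in each line. The libraries of the groups did not overlap for 8 of the 10 genes in IR against DKO cells (54.9% of all tested genes) and for 7 in each other line (50.5% for K1030R, 51.5% for ∆CT and 47.0% for JMO cells). The 4 comparisons share the 3 DKO libraries. The median log2 fold change of the 10 genes was 0.15 for IR cells, 0.10 for K1030R and for ∆CT cells, and 0.06 for JMO cells, and that of all tested genes was 0.01 in each.

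**Figure D2:**
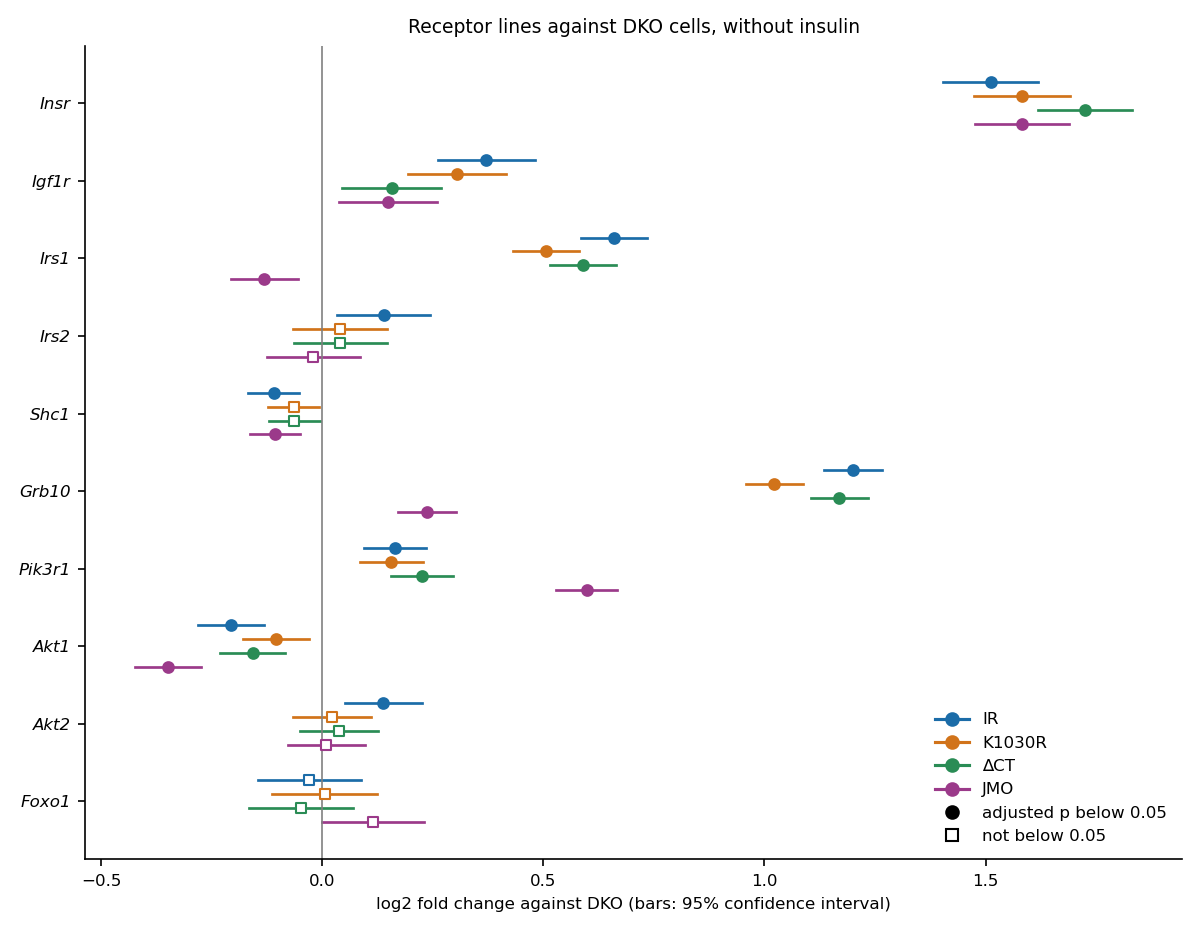
Log2 fold change against DKO cells without insulin (x axis) of the 10 genes (y axis) in IR, K1030R, ∆CT and JMO cells, with 95% confidence intervals from the edgeR fit. Grb10 and Irs1 separate JMO from the other 3 lines, at 0.24 against at least 1.02 for Grb10, while Insr lies between 1.51 and 1.73 in all 4.

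Of the receptors, Insr (ENSMUSG00000005534, GRCm38 chr8:3122061-3279617, minus strand) had 24.3, 24.8 and 22.3 CPM in the 3 DKO libraries. It had 65.9, 67.8 and 69.3 CPM for IR, 76.9, 69.8 and 66.7 for K1030R, 81.8, 78.8 and 74.6 for ∆CT, and 74.2, 68.9 and 69.8 for JMO cells. Every library with a receptor thus lay above every DKO library, and the 4 receptor lines lay close together. The log2 fold change against DKO was 1.51 ± 0.05 (SE; edgeR adjusted p = 1.19e-22) for IR, 1.58 ± 0.05 (4.84e-23) for K1030R, 1.73 ± 0.05 (1.71e-24) for ∆CT and 1.58 ± 0.05 (1.19e-21) for JMO cells. The reads were matched to mouse transcripts although the introduced receptor is human. Reads of the human receptor and of the recombined mouse gene cannot be told apart in a gene count, so these values do not measure either alone. A count over all exons of the gene likewise does not check the deletion, and Insr and Igf1r were both still counted in DKO cells. The study checked the deletion by qPCR and immunoblot and reported neither receptor in DKO cells, as mRNA or as protein.

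Igf1r (ENSMUSG00000005533, chr7:67952827-68233668, plus strand) encodes the IGF-1 receptor, which was recombined in every line and not put back. It was counted at 27.9, 24.7 and 28.6 CPM in DKO and at 35.7, 35.3 and 34.4 CPM in IR cells. K1030R cells had 35.2, 32.8 and 32.8 CPM, ∆CT cells 29.9, 31.1 and 29.9, and JMO cells 30.7, 29.7 and 29.8. No receptor library overlapped the DKO libraries, and IR and K1030R lay above ∆CT and JMO. The log2 fold change against DKO was 0.37 ± 0.05 for IR (SE; edgeR adjusted p = 4.32e-07), 0.31 ± 0.05 for K1030R (2.00e-05), 0.16 ± 0.05 for ∆CT (0.0179) and 0.15 ± 0.05 for JMO cells (0.0326). The ∆CT call was lost without DKO replicate 2 (log2 0.10, edgeR adjusted p = 0.163) or ∆CT replicate 2 (0.14, adjusted p = 0.0679). The JMO call was lost without DKO replicate 2 (0.09, adjusted p = 0.242), JMO replicate 1 (0.14, adjusted p = 0.102) or JMO replicate 3 (0.16, adjusted p = 0.0540), and the calls of IR and K1030R cells held without each library. With DESeq2 and with only the groups compared neither the ∆CT call (adjusted p = 0.0618 and 0.0610) nor the JMO call (0.108 and 0.0558) held, and with no filter the JMO call was lost as well (0.110).

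Irs1 (ENSMUSG00000055980, chr1:82233101-82291416, minus strand) encodes the main docking substrate of the receptor in many tissues. It had 235, 224 and 229 CPM in DKO and 214, 213 and 202 CPM in JMO cells. With the larger intracellular domains it stood higher, at 360, 367 and 360 CPM for IR, 341, 320 and 315 for K1030R, and 350, 350 and 335 for ∆CT cells. The lowest of those 9 libraries was above the highest of the 6 DKO and JMO libraries. Against DKO, Irs1 rose by 0.66 ± 0.04 on the log2 scale for IR (SE; edgeR adjusted p = 6.40e-17), by 0.51 ± 0.04 for K1030R (1.21e-13) and by 0.59 ± 0.04 for ∆CT cells (1.55e-15). In JMO cells the difference was -0.13 ± 0.04 (0.00543), and this call was lost without JMO replicate 3 (log2 -0.10, edgeR adjusted p = 0.0559). No Irs1 difference from DKO passed the 1.5-fold test, with 0.0875 the nearest adjusted p, in IR cells.

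Irs2 (ENSMUSG00000038894, chr8:10984681-11008458, minus strand), the second widely expressed IRS protein, was nearly flat. It had 40.1, 41.5 and 42.0 CPM for DKO, 50.04, 43.4 and 42.4 for IR, 43.6, 43.3 and 40.3 for K1030R, 41.8, 41.6 and 43.9 for ∆CT, and 40.5, 42.3 and 39.2 for JMO cells. IR replicate 1 stood apart from the other libraries. The log2 fold change in IR cells was 0.14 ± 0.05 (edgeR adjusted p = 0.0241). That call was lost without IR replicate 1 (0.06, adjusted p = 0.385), DKO replicate 1 (0.12, adjusted p = 0.0942), or JMO with insulin replicate 2 (0.12, adjusted p = 0.0569) or 3 (0.12, adjusted p = 0.0566), and also with DESeq2 (adjusted p = 0.0899) and with only the groups compared (0.0821). In the other lines the differences from DKO ran from -0.02 to 0.04, with 95% confidence intervals between -0.13 and 0.15. The log2 ratio of Irs2 to Irs1 within a library, on CPM without length scaling, was -2.55 to -2.43 for DKO and -2.40 to -2.33 for JMO cells, but -3.08 to -2.84 for IR, -2.96 to -2.88 for K1030R and -3.07 to -2.93 for ∆CT cells.

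The 2 IRS genes also shared a feature of their promoters, which is why their sequences are shown together with those of Grb10, the gene with the largest difference between the lines with a longer intracellular domain and JMO. RefSeq promoter windows (GRCm38.p6) were found for 9 of the 10 genes. The 250 bases before each annotated start were searched on both strands for TGTTTTG (reverse complement CAAAACA, the core bound by forkhead factors such as FoxO1), for CACGTG (an E-box, its own reverse complement) and for GGGCGG (reverse complement CCGCCC, a GC box). The sequences are given 5′ to 3′ on the strand of the gene, with matches to the first 2 motifs in capitals.
Irs1 (chr1:82291440-82291689, minus strand): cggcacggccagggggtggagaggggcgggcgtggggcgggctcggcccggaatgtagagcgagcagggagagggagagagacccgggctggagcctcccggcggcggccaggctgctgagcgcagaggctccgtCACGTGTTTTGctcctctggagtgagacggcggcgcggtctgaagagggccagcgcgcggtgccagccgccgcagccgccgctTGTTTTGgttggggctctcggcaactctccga
Irs2 (chr8:11008930-11009179, minus strand): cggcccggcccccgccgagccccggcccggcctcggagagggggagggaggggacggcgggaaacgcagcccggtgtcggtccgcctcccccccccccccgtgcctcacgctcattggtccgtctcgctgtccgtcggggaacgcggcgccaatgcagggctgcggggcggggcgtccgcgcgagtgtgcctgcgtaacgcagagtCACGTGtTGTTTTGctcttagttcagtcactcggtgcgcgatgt
Grb10, inner start (chr11:12027972-12028221, minus strand): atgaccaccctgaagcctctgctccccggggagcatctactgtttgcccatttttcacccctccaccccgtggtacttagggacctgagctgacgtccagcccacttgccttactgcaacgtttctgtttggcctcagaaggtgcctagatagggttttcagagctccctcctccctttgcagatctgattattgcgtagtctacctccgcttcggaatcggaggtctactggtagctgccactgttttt
Grb10, outer start (chr11:12037421-12037670, minus strand): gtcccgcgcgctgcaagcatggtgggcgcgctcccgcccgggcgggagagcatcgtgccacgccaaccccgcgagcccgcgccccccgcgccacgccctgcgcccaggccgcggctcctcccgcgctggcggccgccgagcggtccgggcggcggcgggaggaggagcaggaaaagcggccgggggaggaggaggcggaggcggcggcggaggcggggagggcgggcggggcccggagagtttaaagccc

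Counted back from 1 at the base before the start, Irs1 held CACGTG at 115 to 110, which overlaps TGTTTTG at 111 to 105, and a further TGTTTTG at 32 to 26. Irs2 held CACGTG at 44 to 39 and TGTTTTG at 37 to 31. None of the windows of the other 7 genes held either motif. Of 32851 mouse promoter windows of the same length, 5.56% held TGTTTTG or its complement, 6.02% CACGTG, and 0.295% both. GGGCGG or its complement, which 32.7% of all windows held, was found in at least 1 window of all 9 genes, with 5 matches at the outer start of Grb10 and none at its inner start. The windows of Irs1 and Irs2 had 72.4% and 72.8% GC, against a median of 52.4% over all windows. The motifs were picked with the pathway in mind, and a match describes the letters only.

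Among the adaptors, Grb10 (ENSMUSG00000020176, chr11:11930508-12038683, minus strand) showed the clearest division of the lines. DKO cells had 125, 127 and 128 CPM and JMO cells 152, 147 and 150 CPM. IR cells had 286, 291 and 297 CPM, K1030R cells 258, 264 and 250, and ∆CT cells 288, 282 and 285. The lowest of the 9 libraries with a longer intracellular domain was well above the highest JMO library, and JMO did not overlap DKO. The log2 fold change against DKO was 1.2 ± 0.03 for IR (SE; edgeR adjusted p = 3.25e-26), 1.02 ± 0.03 for K1030R (6.21e-24), 1.17 ± 0.03 for ∆CT (7.71e-26) and 0.24 ± 0.03 for JMO cells (3.43e-07). As folds these were 2.30, 2.03, 2.25 and 1.18. Grb10 is an imprinted gene with 9 annotated transcripts, and the gene count does not say which start was used.

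Shc1 (ENSMUSG00000042626, chr3:89418443-89430027, plus strand), the adaptor towards Ras, lay in a narrow band. It had 276, 277 and 280 CPM for DKO, 262, 259 and 251 for IR, 271, 265 and 260 for K1030R, 269, 267 and 261 for ∆CT, and 259, 256 and 259 for JMO cells. Without insulin, all receptor libraries were below all DKO libraries, by small amounts. Shc1 fell by 0.11 on the log2 scale in IR (SE 0.03; edgeR adjusted p = 0.00140) and in JMO cells (SE 0.03; 0.00304). In K1030R and ∆CT cells the differences were -0.07 (0.0642) and -0.06 (0.0660). Both lay near the threshold and were called under RLE scaling, DESeq2 and limma voom. Leaving out IR replicate 3, K1030R replicate 1 or JMO with insulin replicate 2 or 3 also brought the K1030R difference past the threshold (log2 -0.07, -0.08, -0.07 and -0.07), and JMO with insulin replicate 2 the ∆CT difference (-0.07).

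Pik3r1 (ENSMUSG00000041417, chr13:101680563-101768217, minus strand), which encodes p85α and its shorter forms, stood highest in JMO cells. It had 109, 109 and 108 CPM for DKO, 120, 121 and 125 for IR, 119, 122 and 122 for K1030R, and 124, 123 and 135 for ∆CT cells. JMO cells had 158, 164 and 171 CPM, above all other libraries without insulin. The log2 fold change against DKO was 0.60 ± 0.03 in JMO cells (SE; edgeR adjusted p = 8.00e-16). It was 0.16 ± 0.03 for IR (1.56e-04), 0.16 ± 0.03 for K1030R (4.00e-04) and 0.23 ± 0.03 for ∆CT cells (1.49e-06). None passed the 1.5-fold test, and all 4 were called without each library in turn.

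Akt1 (ENSMUSG00000001729, chr12:112653821-112674884, minus strand), the broadly expressed Akt kinase, was highest in DKO cells, at 250, 248 and 248 CPM. It had 223, 216 and 207 CPM for IR, 233, 229 and 231 for K1030R, 232, 230 and 207 for ∆CT, and 195, 199 and 191 for JMO cells, so that no receptor library reached the DKO level. Akt1 fell by 0.35 on the log2 scale for JMO (SE 0.04; edgeR adjusted p = 1.88e-09), by 0.21 for IR (SE 0.04; 1.25e-05), by 0.16 for ∆CT (SE 0.04; 5.14e-04) and by 0.10 for K1030R cells (SE 0.04; 0.0198). The K1030R call was lost without DKO replicate 1 (-0.10, adjusted p = 0.0523) or K1030R replicate 2 (-0.10, adjusted p = 0.0600), and with no filter on low counts (-0.10, adjusted p = 0.0636).

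Akt2 (ENSMUSG00000004056, chr7:27591552-27640826, plus strand), the Akt kinase most tied to insulin-stimulated glucose uptake, had 81.6, 79.4 and 87.3 CPM in DKO and 95.9, 93.5 and 84.1 CPM in IR cells. Those groups overlapped, and the log2 fold change of 0.14 ± 0.04 (edgeR adjusted p = 0.00745) was no longer called without DKO replicate 2 (0.11, adjusted p = 0.0586) or IR replicate 1 (0.10, adjusted p = 0.0837). In K1030R, ∆CT and JMO cells Akt2 ran from 80.4 to 87.1 CPM, and its differences from DKO (0.02, 0.04 and 0.01) were not called. The log2 ratio of Akt2 to Akt1 within a library, on CPM, was -1.64 to -1.50 in DKO, -1.53 to -1.40 in K1030R, -1.46 to -1.27 with ∆CT, -1.3 to -1.21 in IR and -1.25 to -1.21 in JMO cells, so that K1030R overlapped DKO cells.

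Foxo1 (ENSMUSG00000044167, chr3:52268336-52353221, plus strand), the transcription factor held in check by Akt, had 26.2, 28.1 and 25.3 CPM in DKO cells. It ran from 25.4 to 26.3 CPM for IR, 25.3 to 28.2 for K1030R, 24.9 to 26.2 for ∆CT and 27.9 to 30.2 for JMO cells. None of the 4 differences from DKO was called (log2 -0.03, 0.01, -0.05 and 0.11, edgeR adjusted p = 0.714, 0.959, 0.538 and 0.122). Their 95% confidence intervals lay between -0.17 and 0.23, which leaves room for changes of up to that size.

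Direct comparisons between the receptor lines without insulin separated JMO cells from the rest. Against IR cells, 8 of the 10 genes differed for JMO cells (42.4% of all tested genes were called), 4 for K1030R cells (30.2%) and 2 for ∆CT cells (26.1%). Against K1030R cells, 5 differed in JMO (35.4%) and 1 in ∆CT cells (3.43%), and 6 differed between JMO and ∆CT cells (38.8%). Grb10 was lower in JMO than in IR (log2 -0.96 ± 0.03), K1030R (-0.78 ± 0.03) and ∆CT cells (-0.93 ± 0.03), and Irs1 likewise (-0.79 ± 0.04, -0.64 ± 0.04 and -0.72 ± 0.04). Pik3r1 was higher by 0.43 ± 0.03, 0.44 ± 0.03 and 0.37 ± 0.03, and Akt1 lower by 0.14 ± 0.04, 0.24 ± 0.04 and 0.19 ± 0.04. Past the 1.5-fold test were Grb10 in all 3 comparisons, and Irs1 against IR and ∆CT cells. That test called 2 of the 10 genes against IR (4.59% of all tested genes), 1 against K1030R (3.64%) and 2 against ∆CT cells (4.50%). Between the lines that kept the kinase domain edgeR's minimum-fold test called 0, with 1.04% of all tested genes for K1030R against IR, 0.708% for ∆CT against IR and 0.0390% for ∆CT against K1030R cells. The 0 calls by this test stand beside the 4, 2 and 1 calls of the test without a minimum fold.

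Within the lines that kept the kinase domain, differences were small. K1030R cells had less Grb10 (log2 -0.18 ± 0.03, edgeR adjusted p = 2.55e-05) and less Irs1 (-0.15 ± 0.04, 0.00119) than IR cells. The calls of Akt1 (0.10 ± 0.04, 0.0321) and Akt2 (-0.12 ± 0.04, 0.0388) between these lines were each lost without several single libraries. For Akt1 these were IR replicates 2 and 3 and K1030R replicates 1 and 3 (log2 0.10, 0.08, 0.10 and 0.10), and for Akt2 IR replicates 1 and 2, K1030R replicates 1 and 3, and JMO with insulin replicates 2 and 3 (-0.08, -0.10, -0.08, -0.12, -0.10 and -0.10). With no filter both calls were lost (adjusted p = 0.0532 and 0.0704). Akt2 was not called either with RLE scaling (0.0536), a filter of 10 counts (0.0601), DESeq2 (0.0925), limma voom (0.0531) or only the groups compared (0.153), nor in the insulin libraries (0.990). ∆CT cells had more Insr (0.21 ± 0.05, 5.33e-04) and less Igf1r (-0.21 ± 0.05, 0.00219) than IR cells, and more Grb10 than K1030R cells (0.15 ± 0.03, 0.00326). The last call was lost without K1030R replicate 3 (0.13, adjusted p = 0.0505) or with only the groups compared (0.15, adjusted p = 0.0776), whereas without K1030R replicate 1 or ∆CT replicate 3 Insr was called between these lines as well (0.20 and 0.18). Without IR replicate 3 the count of called genes between ∆CT and IR cells was 4 in place of 2. Foxo1 was higher in JMO than in IR (0.14 ± 0.06, 0.0396) and ∆CT cells (0.16 ± 0.06, 0.0226). The first call was lost without IR replicate 1, 2 or 3 or JMO replicate 2 (0.16, 0.15, 0.13 and 0.11), and the second without ∆CT replicate 1 (0.14) or JMO replicate 2 (0.12). With no filter and with DESeq2 neither Foxo1 call held (adjusted p = 0.159 and 0.0860 against IR, 0.101 and 0.0727 against ∆CT cells), and with only the groups compared the first did not (0.0507). Igf1r was lower in JMO than in IR cells (-0.22 ± 0.05, 7.15e-04), as were Irs2 (-0.16 ± 0.05, 0.0113) and Akt2 (-0.13 ± 0.04, 0.0140), of which Irs2 was not called without IR replicate 1 (-0.08) or JMO replicate 3 (-0.13) or with only the groups compared (-0.16, adjusted p = 0.0577), and Akt2 without IR replicate 1 or 2 or JMO replicate 3 (-0.09, -0.11 and -0.10). Igf1r against K1030R (-0.16 ± 0.05, 0.0197) and Insr against ∆CT cells (-0.14 ± 0.05, 0.0121) were the other calls in JMO cells. Igf1r lost its call without K1030R replicate 1 (-0.12) or JMO replicate 2 or 3 (-0.15 and -0.15) and with DESeq2 (-0.16, adjusted p = 0.0591), and Insr without ∆CT replicate 1 (-0.11) or JMO replicate 2 or 3 (-0.12 and -0.13). In the insulin libraries the calls of Igf1r were lost for ∆CT against IR (log2 -0.12, edgeR adjusted p = 0.172), JMO against IR (-0.08, adjusted p = 0.224) and JMO against K1030R cells (-0.02, adjusted p = 0.767). Lost there too were Akt1 (-0.08, adjusted p = 0.0841), Akt2 (-0.06, adjusted p = 0.304) and Foxo1 (0.10, adjusted p = 0.171) for JMO against IR, Foxo1 for JMO against ∆CT (0.15, adjusted p = 0.0769) and Grb10 for ∆CT against K1030R cells (0.09, adjusted p = 0.140).

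With the lines averaged by intracellular domain, IR, K1030R and ∆CT cells together were set against DKO and JMO cells together, each line with equal weight. Of the 10 genes, 5 were higher and 1 lower, where 52.3% of all tested genes were called (26.7% higher, 25.6% lower). Grb10 rose by 1.01 ± 0.02 on the log2 scale (SE; edgeR adjusted p = 9.88e-30), Insr by 0.82 ± 0.03 (2.84e-21) and Irs1 by 0.65 ± 0.02 (3.19e-22). These 3 passed the 1.5-fold test, as did 5.67% of all tested genes. For Insr this contrast mixes JMO cells, which carried a receptor, with DKO cells, which did not. Igf1r was higher by 0.20 ± 0.03 (6.42e-06), although it did not separate ∆CT from JMO cells. Its differences from DKO were 0.16 and 0.15 in those lines, and JMO minus ∆CT was -0.01 ± 0.05 (edgeR adjusted p = 0.918). Pik3r1 was lower, at -0.12 ± 0.02 (3.26e-05). Pik3r1 was nonetheless higher than in DKO cells for each of IR (0.16), K1030R (0.16) and ∆CT cells (0.23), and the sign of the average comes from JMO cells, at 0.60 against DKO. The call of Irs2 (0.08 ± 0.03, 0.0353) was lost on leaving out any of 10 libraries (0.06 to 0.09). These were DKO replicates 1 and 2, IR replicate 1, K1030R replicates 1 and 2, ∆CT replicate 3, JMO replicates 1 and 3, and JMO with insulin replicates 2 and 3. It was also lost with DESeq2 (adjusted p = 0.0979) and with only the groups compared (0.0905). Shc1, Akt1, Akt2 and Foxo1 were not called. Akt2 (0.06) was called without DKO replicate 3, IR replicate 3 or K1030R replicate 1 (0.08, 0.08 and 0.07), and Foxo1 (-0.08) without DKO replicate 3, K1030R replicate 1 or JMO with insulin replicate 2 or 3 (-0.10, -0.10, -0.09 and -0.09). Akt2 was also called with no filter (adjusted p = 0.0462), and Foxo1 with RLE scaling (0.0499) and with only the groups compared (0.0482).

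**Figure D3:**
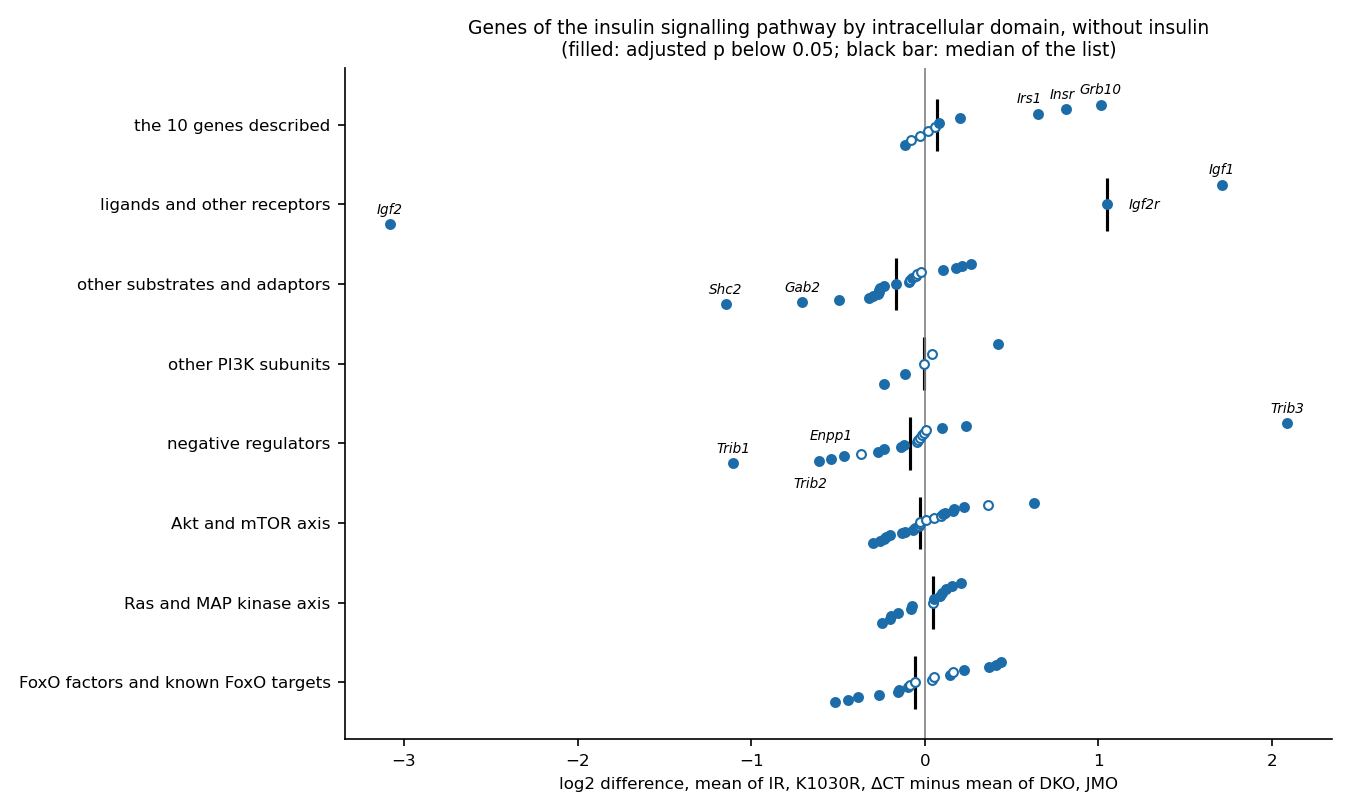
Log2 difference, without insulin, of IR, K1030R and ∆CT cells (mean of lines) from DKO and JMO cells (x axis) for the 10 genes and for 7 lists of other pathway genes (rows). Each point is a gene, filled where the edgeR adjusted p is below 0.05, and black bars are list medians. The medians of the 7 lists lie between -0.16 and 0.05 except for the 3 tested ligands and receptors, at 1.05, and the median of the 10 genes is 0.07.

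Within 15 min of insulin, Insr was the only one of the 10 genes called at an adjusted p below 0.05, and it rose in IR and ∆CT cells. In IR cells it went from 65.9, 67.8 and 69.3 CPM to 89.8, 87.5 and 85.2 CPM, with no overlap (16.2% of all tested genes). In ∆CT cells it went from 81.8, 78.8 and 74.6 CPM to 96.4 and 99.7 CPM, again with no overlap (23.4% of all tested genes, with 2 insulin libraries). The log2 change was 0.37 ± 0.05 in IR (SE; edgeR adjusted p = 5.25e-07) and 0.32 ± 0.05 in ∆CT cells (5.17e-05), as folds 1.29 and 1.25. These were 1 of 10 genes in each line, where 1.87% of all tested genes were called in IR and 1.01% in ∆CT cells. In K1030R cells the insulin libraries had 69.3, 65.5 and 69.8 CPM, and in JMO cells 75.3, 73.2 and 77.3 CPM. Both groups overlapped their basal libraries (log2 -0.06 ± 0.05 with edgeR adjusted p = 0.960, and 0.08 ± 0.05 with 0.784). No gene of the 10 was called in either line, where 0.156% and 0.364% of all tested genes were. By an unadjusted edgeR p below 0.05, ∆CT cells had 3 of the 10 genes, IR and JMO cells 1 each, and K1030R cells 0. No share of all tested genes was taken at that threshold, so these counts cannot be set against a background. Neither K1030R nor JMO cells gave a call with DESeq2 or limma voom.

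The change of Insr itself was compared between lines. The insulin effect was smaller for K1030R than for IR cells by 0.43 ± 0.06 on the log2 scale (edgeR adjusted p = 6.61e-05) and larger for ∆CT than for K1030R cells by 0.38 ± 0.07 (0.00110). It was smaller in JMO than in IR cells by 0.29 ± 0.06 (0.0294). Without any 1 of 7 libraries that last difference was -0.29 to -0.26 and its adjusted p 0.0682 to 0.186. These were IR replicates 1 and 2, IR with insulin replicates 1 and 2, JMO replicate 1, and JMO with insulin replicates 1 and 2. With limma voom it was -0.29 (adjusted p = 0.0515). The effects for IR and ∆CT cells (difference -0.05 ± 0.07, 95% confidence interval -0.18 to 0.09), for ∆CT and JMO cells (-0.24 ± 0.07 for JMO minus ∆CT, 0.297, and called at 0.0166 with no filter) and for K1030R and JMO cells (0.14 ± 0.07, adjusted p = 1.0) were not called different. Of all tested genes 0.370%, 0.416% and 0.279% were called in the first 3 of these comparisons, and 0.00649% (∆CT minus IR), 0.260% (JMO minus ∆CT) and 0.0260% (JMO minus K1030R) in the others. Because the introduced receptor is human and driven by the retroviral vector, a rise in Insr counts cannot be assigned to the mouse gene or to the vector. The summed level of 4 macrophage markers was also higher with insulin in these lines, at 2.47 to 2.71 CPM over the basal and 3.80 to 4.41 CPM over the insulin libraries of IR cells, and at 2.59 to 2.94 and 3.77 to 4.34 CPM in ∆CT cells. It was 2.67 to 3.02 and 2.26 to 2.92 CPM in K1030R cells, and 2.80 to 3.22 and 3.20 to 3.77 CPM in JMO cells. Of the 4 markers 2 passed the filter, the defining marker Adgre1 was at 0 in all libraries, and Ptprc reached at most 0.399 CPM. The endothelial sum was 10.3 to 11.5 CPM over the basal and 11.99 to 15.3 CPM over the insulin libraries of IR cells and overlapped in the other lines, and the muscle sum was 3.05 to 3.14 and 1.91 to 2.30 CPM in ∆CT cells and overlapped in the others. The part of these markers in the Insr differences was not tested.

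**Figure D4:**
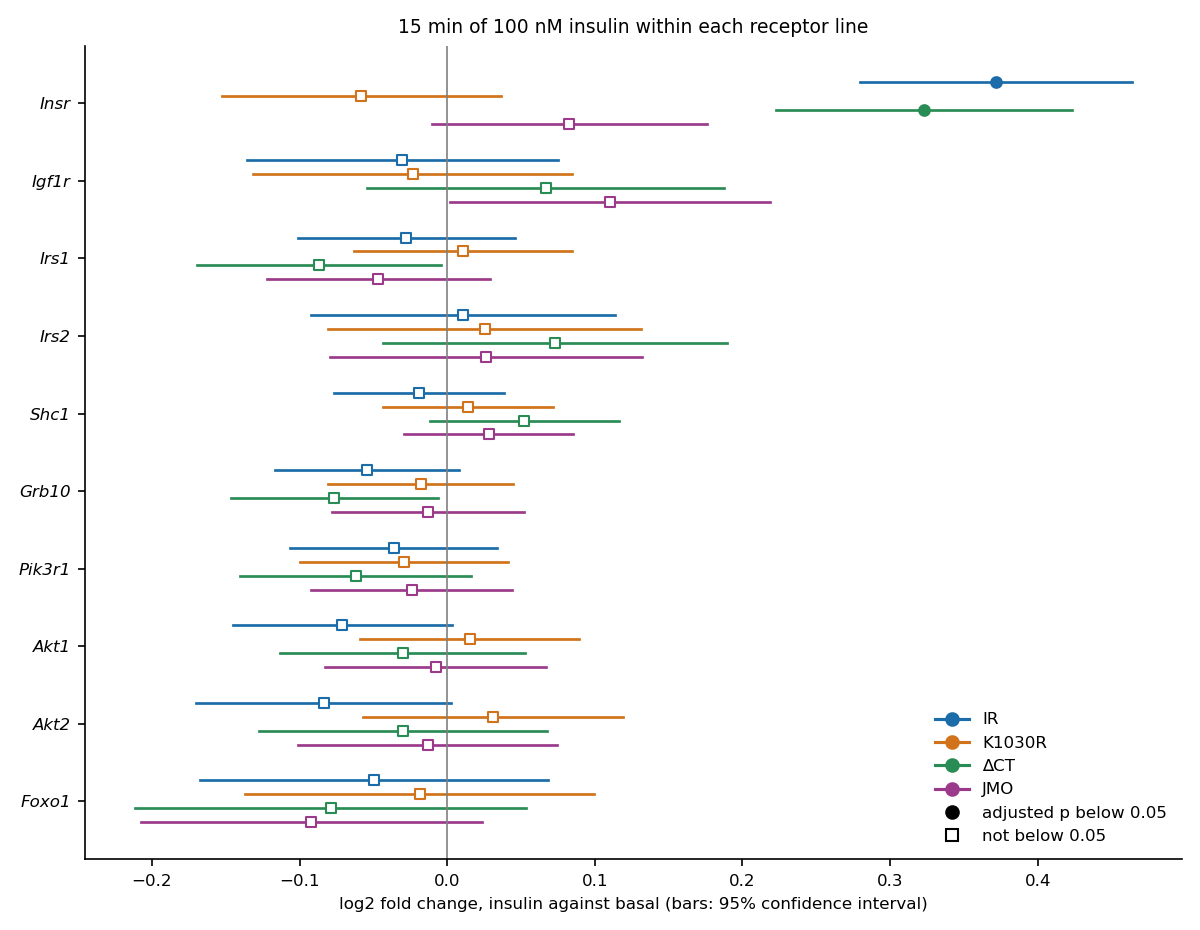
Log2 change with 15 min of insulin (x axis) of the 10 genes (y axis) in IR, K1030R, ∆CT and JMO cells, with 95% confidence intervals from the edgeR fit. Insr lies at 0.37 in IR and 0.32 in ∆CT cells, and the adjusted p of every other gene is above 0.05.

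The other 9 genes stayed near their basal level with insulin. In IR cells their log2 changes ran from -0.08 (Akt2, edgeR adjusted p = 0.362) to 0.01 (Irs2), and without IR replicate 3 Akt2 was called (-0.14, adjusted p = 0.0405). In K1030R cells they ran from -0.03 to 0.03, in ∆CT cells from -0.09 (Irs1, 0.489) to 0.07 (Irs2) and in JMO cells from -0.09 (Foxo1, 0.823) to 0.11 (Igf1r, 0.701). In ∆CT cells the insulin libraries did not overlap the basal ones for 8 of the 10 genes, where 23.4% of all tested genes did not overlap and the insulin group held 2 libraries.

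With insulin present in both lines, JMO differed from IR cells in 5 of the 10 genes (40.2% of all tested genes), of which Irs1, Irs2, Grb10 and Pik3r1 had been called in the same direction without insulin. Grb10 was lower in JMO than in IR cells by 0.92 ± 0.03 on the log2 scale and Irs1 by 0.81 ± 0.04, and Pik3r1 was higher by 0.45 ± 0.03. Insr was the fifth gene. It was lower in JMO than in IR cells by 0.22 ± 0.05 (edgeR adjusted p = 1.63e-04), and lower in K1030R than in IR cells by 0.36 ± 0.05 (1.08e-07), whereas without insulin both were higher by 0.07 and not called. The other pairs of lines with insulin differed in 5 of the 10 genes (K1030R and IR, 34.0% of all tested genes), 3 (∆CT and IR, 19.7%), 1 (∆CT and K1030R, 5.03%), 5 (JMO and K1030R, 38.4%) and 5 (JMO and ∆CT, 33.1%). Of these, Irs1, Grb10, Pik3r1 and Akt1 were called in JMO against K1030R and against ∆CT cells in the same direction as without insulin. The 3 genes between ∆CT and IR cells were Insr (0.16), Irs1 (-0.13) and Shc1 (0.12). The one gene between ∆CT and K1030R cells was Insr (0.52 ± 0.05, 1.57e-09), where without insulin it had been Grb10.

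The pathway around these genes was followed in 7 lists of 108 other genes, of which 99 were tested. Between IR and DKO cells 27 were higher and 31 lower, between K1030R and DKO cells 25 and 39, between ∆CT and DKO cells 26 and 44, and between JMO and DKO cells 25 and 20. These are 58.6%, 64.6%, 70.7% and 45.5% of the tested list genes, against the 49.8%, 41.6%, 46.3% and 34.3% of all tested genes given above. The lists were not matched to all tested genes in expression level and were chosen with earlier results of these data known. Whether the pathway differs from other genes was not tested. Insulin ligands and the remaining receptor of the family were at or near 0, with a highest count in any library of 0 for Ins1, 1 for Ins2 and 4 for Insrr, and of 5 and 2 for the further substrates Irs3 and Irs4. Of the 3 tested ligands and receptors, Igf1, which encodes the ligand of the deleted IGF1R, rose from 3.47 ± 0.10 CPM (SD, n = 3) for DKO to 21.9 ± 1.15 for IR, 13.8 ± 0.89 for K1030R, 12.2 ± 0.18 for ∆CT and 6.47 ± 0.84 for JMO cells. Igf2r, the receptor that clears IGF-II, rose from 17.7 ± 1.38 CPM to 60.8 ± 0.80, 53.7 ± 1.18, 52.7 ± 4.57 and 40.6 ± 0.31 CPM in the same lines. Igf2 was near the limit of detection, with 0.72 ± 0.06 CPM for DKO, 0.86 ± 0.28 for JMO, 0.15 ± 0.13 for IR, 0.07 ± 0.12 for K1030R and 0.07 ± 0.06 for ∆CT cells.

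By intracellular domain, 4 of 21 tested other substrates and adaptors were higher and 13 lower (median log2 difference -0.16), where 26.7% of all tested genes were higher and 25.6% lower (52.3% called). The largest differences were those of Shc2 (-1.15 ± 0.14, SE, at 2.22 CPM in DKO cells) and Gab2 (-0.71 ± 0.05), a docking protein for PI3K and SHP2. Of 5 tested PI3K subunits, 1 was higher and 2 lower (median -0.01), with Pik3r2 at 0.42 ± 0.03 and Pik3r3 at -0.24 ± 0.03. Pik3r3, like Pik3r1, was higher in JMO than in DKO cells (0.26 ± 0.05, edgeR adjusted p = 2.27e-05). Of 18 negative regulators, 3 were higher and 8 lower (median -0.08), against the same 52.3% of all tested genes called, which also holds for the PI3K subunits. They include the tribbles pseudokinases, among them Trib3, an inhibitor of Akt. Trib3 had 7.23 ± 0.19 CPM (SD, n = 3) in DKO, 37.0 ± 3.72 in IR, 34.3 ± 1.02 in K1030R, 31.3 ± 3.46 with ∆CT and 8.93 ± 0.27 in JMO cells. Trib1 (-1.10 ± 0.06, SE) and Trib2 (-0.61 ± 0.04) were lower by intracellular domain. Trib2 was also lower in JMO than in DKO cells (-0.48 ± 0.05, edgeR adjusted p = 4.89e-09), whereas Trib1 was higher there (0.38 ± 0.09). Enpp1, which binds and inhibits the receptor, was lowest in K1030R cells (33.4 ± 2.78 CPM against 68.0 ± 0.96 in DKO cells, SD, n = 3).

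The Akt and mTOR axis had 6 higher and 9 lower of 22 by intracellular domain (median -0.03), where 52.3% of all tested genes were called, 26.7% higher and 25.6% lower. That background applies to the other lists of this contrast as well. Deptor, an inhibitor of mTOR, was higher than in DKO cells in all 4 receptor lines, by 0.62 ± 0.05 (SE) for JMO, 0.58 ± 0.05 for IR, 0.35 ± 0.05 for K1030R and 0.33 ± 0.05 with ∆CT, and Gsk3b was at 0.22 ± 0.02 by intracellular domain. In the Ras and MAP kinase axis 6 were higher and 6 lower of 13 (median 0.05), and Nras was lower in JMO than in DKO cells (-0.26 ± 0.03). Of 17 FoxO factors and known FoxO targets 5 were higher and 7 lower (median -0.06). Sesn3, a sestrin and FoxO target, had 145 ± 3.61 CPM (SD, n = 3) for DKO, 238 ± 2.19 for IR, 168 ± 5.52 for K1030R, 192 ± 12.4 for ∆CT and 195 ± 7.51 for JMO cells. The median over all tested genes in this contrast was 0.01.

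With insulin, 5 of the 99 list genes rose in IR, 3 in ∆CT, 1 in JMO and 0 in K1030R cells, and 0 fell. Of all tested genes 1.87%, 1.01%, 0.364% and 0.156% were called in these lines. The 5 in IR cells were Socs3, a feedback inhibitor (log2 0.62 ± 0.07, edgeR adjusted p = 2.60e-07), Trib1 (0.65 ± 0.10, 8.76e-05), Txnip (0.30 ± 0.04, 1.64e-06), Araf (0.17 ± 0.04, 0.0219) and Pdk4 (0.13 ± 0.03, 0.0217). Socs3 (0.69 ± 0.08), Txnip (0.24 ± 0.04) and Pdk4 (0.18 ± 0.03) rose in ∆CT cells too, and Pdk4 was the one gene called in JMO cells (0.14 ± 0.03, 0.0202). Apart from Trib1 these genes were singled out after their values were seen, as they are all the list genes that were called.

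Genes whose 9 group means of log2 CPM most resembled those of one of the 10 were sought for Insr and Grb10, the genes past the 1.5-fold test against DKO cells. Those nearest to Grb10 were Ptn, which encodes the growth factor pleiotrophin (Pearson r = 0.997 over 9 groups), Sema3a, a secreted semaphorin (0.996), and Adam19, a metalloprotease (0.994). Ptn had a mean of 210 CPM for DKO, 718 for IR, 604 for K1030R, 636 for ∆CT and 252 for JMO cells. Irs1 and Grb10 had r = 0.961 with each other over the same 9 groups, as a description of groups that share lines. Nearest to Insr were Slc25a53 (0.982), Btrc (0.979) and Dchs2 (0.978). Their means in DKO and in ∆CT with insulin were 11.1 and 13.6, 24.2 and 32.2, and 3.56 and 8.27 CPM, against 23.8 and 98.1 CPM for Insr.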

How the data were processed

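Poly(A) RNA of 26 libraries in 9 groups was read from 1 end, 100 bases per read, from a strand-specific kit. The authors used fastp for trimming, kallisto for assignment to Ensembl 98 mouse transcripts, and tximport for gene totals. The deposited values are expected counts, neither filtered nor scaled, and 79.9% were exactly whole. No human receptor sequence was part of that reference as described, and kallisto shares reads between similar transcripts, both of which bear on Insr. Opposite-strand transcripts overlap exons of Irs1 (Gm9747), Irs2 (9530052E02Rik) and Foxo1 (Gm20402), and the strand setting of the counting is not given in the sources used here.

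Expected counts were rounded to whole numbers. The filter required over 0.5 CPM in 4 libraries or more, as in the study's methods (15402 of 52962). With TMM factors in edgeR 4.0.16 (R 4.3.3), all libraries entered 1 quasi-likelihood fit (robust) with a mean per group, leaving 17 residual degrees of freedom. Adjusted p is Benjamini-Hochberg over all tested genes of a contrast, called below 0.05. The minimum-change test was glmTreat at 1.5-fold. Printed levels are CPM on TMM-scaled totals. Coordinates are those of GENCODE M21 on GRCm38.

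The 10 genes, pathway lists and marker lists were chosen with earlier results of these data known. All 10 genes are named throughout. From each pathway list the text names the genes past the 1.5-fold test against DKO or by intracellular domain, up to 4 with the largest change, and otherwise the 2 with the smallest adjusted p. A gene that this rule would name is not reported here. For Insr and Grb10 it names the 3 genes of most similar group means.

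Libraries of a group differed beyond counting error (chi-square per degree of freedom 2.83 to 22.5 over 25 pairs), and none was left out or counted once with another. Equal replicate numbers gave no pairing, and the check stands with the alternatives below. On simulated data with changes seeded in the IR against DKO comparison over 15402 genes, 42% of 50 genes changed 1.2-fold were called, 74% at 1.5-fold, 88% at 2-fold and 98% at 3-fold. The seeded genes were drawn at random from all tested genes, and the same spread was set for every gene. The alternatives were RLE scaling, no filter, a filter of 10 counts in at least 4 libraries, DESeq2 1.42.0, limma 3.58.1 (voom and TREAT), a fit of the compared groups alone, comparison of lines in insulin libraries, a replicate block, another or no minimum fold, other lengths and CPM on plain totals, and each library left out in turn.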

Additional observations from a re-analysis of the deposited data

Results flagged for a closer look

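The effect of 15 min of insulin on Insr differed between receptor lines in 3 of 6 comparisons of lines, by a contrast of the insulin effects in the edgeR model adjusted over all 15402 genes. The difference was -0.43 on the log2 scale for K1030R minus IR cells (edgeR adjusted p = 6.61e-05), where 0.370% of all tested genes were called. For JMO minus IR cells it was -0.29 (0.0294), where 0.279% were called, and for ∆CT minus K1030R cells 0.38 (0.00110), where 0.416% were. The JMO minus IR difference was not called with limma voom (adjusted p = 0.0515) or without any 1 of 7 libraries (adjusted p up to 0.186), which were IR replicates 1 and 2, IR with insulin replicates 1 and 2, JMO replicate 1, and JMO with insulin replicates 1 and 2. The K1030R minus IR and ∆CT minus K1030R differences kept their call in all settings run. Insr was higher with insulin in all 3 IR libraries and both ∆CT libraries than in any basal library of those lines. Single outlying libraries were not tested for within groups of 2 or 3.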

How the results depend on the processing

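For the 210 results of the 10 genes in 21 contrasts, 1740 values under 9 other settings stayed on the same side of the threshold in 1688 cases, lost the call in 35, gained it in 15 and turned in 2. Leaving out 1 library in turn gave 5460 values, of which 5382 stayed on the same side, 59 lost it, 19 gained it and 0 turned. A sign change called in neither fit (24 and 111 values) was counted as staying on the same side. Both turns were for Insr with insulin in place of basal libraries, K1030R minus IR at -0.36 and JMO minus IR at -0.22 on the log2 scale. The cause was not tested.

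Replicate numbers were not a pairing: the median correlation between deviations was -0.00111 for 100 pairs of libraries that share a number and -0.00162 for 200 that do not, with -0.108 the lowest of the former. With a replicate block 9 of the 10 genes were called in IR against DKO cells, as without it, and the block changed no call.

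Counts of the 10 genes moved by over 1.5 times as follows, the cause not tested. JMO minus IR gave 5 in place of 8 with insulin libraries (and 5 without IR replicate 1), K1030R minus IR 2 in place of 4 with no filter, and ∆CT minus K1030R 0 in place of 1 with only the groups compared, which leaves fewer libraries. The insulin-effect difference JMO minus IR gave 0 in place of 1 with limma voom, and JMO minus ∆CT 1 in place of 0 with no filter. Without single libraries, the ranges were 5 to 8 for JMO minus IR, 2 to 4 for K1030R minus IR, 2 to 4 for ∆CT minus IR, 0 to 2 for ∆CT minus K1030R, 1 to 2 for insulin in IR cells and 0 to 1 for the insulin-effect difference JMO minus IR.

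With the minimum of 1.5-fold dropped, counts against DKO went from 2, 2, 2 and 1 to 9 for IR, 6 for K1030R, 6 for ∆CT and 7 for JMO cells, by intracellular domain from 3 to 6, JMO minus IR, K1030R and ∆CT from 2, 1 and 2 to 8, 5 and 6, and from 0 to 4 for K1030R minus IR, 2 for ∆CT minus IR, 1 for ∆CT minus K1030R, and 1 each for insulin in IR and ∆CT cells. At 1.2-fold they were 4 in IR and 3 in JMO cells against DKO and 3 for JMO minus K1030R. The share of all tested genes at 1.2-fold was not taken, so these counts cannot be set against a background. Depth limits Igf1r, Insr, Foxo1 and Irs2 most, with a lowest count of 435 to 728 in a library. Seeded 1.2-fold changes were mostly not recovered.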
